A study of Mus musculus with 9 samples.

Results

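The adult cortex of 2 inbred mouse strains, WSB and C3H, was compared directly for every gene with a mean of at least 1 FPKM over their 6 libraries. FPKM is the number of sequenced fragments per kilobase of gene length, scaled here for library size. The rule kept 13011 of the 54532 genes in the deposited table, on all chromosomes. Each library came from the brain cortex of 1 male mouse aged 8 to 12 weeks, with 3 mice per strain, and the labels name no transgene or treatment. WSB/EiJ is inbred from wild house mice, C3H/HeJ is a classical laboratory strain that carries a known defect in the endotoxin receptor Tlr4, and the 3 mice of B6 (C57BL6/J, the strain of the reference genome) serve only to place a difference. Genes were selected on their mean FPKM, so levels are given as a description. The difference between WSB and C3H was tested, but 641 members reached that mean through 1 strain while the other lay under 1 FPKM, and for these level and difference are linked.

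Inbred mouse strains differ by fixed variants across the genome. Such variants can remove a gene, multiply it, change how much of it is transcribed or insert processed copies of its messenger RNA elsewhere, and wild-derived strains hold many variants that laboratory strains lack. The question behind the series is which genes could underlie the strains' different damage after a blocked cerebral artery. Whole cortex holds many cell types, so fewer cells of a type and less RNA per cell cannot be told apart.

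Reads on genes numbered 16317439 to 17784118 per WSB mouse and 19042306 to 19433751 per C3H mouse. The libraries carried Ddx3y, a Y-linked gene, at 527 to 1231 reads and no Xist reads. The first principal component, with 58.8% of the variance of the 6 libraries, separated the strains. C3H replicate 2 stood apart from the other C3H mice: across genes, its deviation from the C3H mean followed transcript GC content with a Spearman's rho of -0.61, against 0.41 and 0.43 in C3H replicates 1 and 3, and its count of the RNA gene Gm23935 reached 59985 FPKM against 7496 to 10296 FPKM in the other 5 libraries. The log2 fold change between strains also followed GC content (Spearman's rho -0.40 over 12998 genes, a description, since genes share these libraries). List counts that move by more than 1 gene without C3H replicate 2, and calls lost without it or after each library's GC trend was taken out, are given beside the results.

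Of the 13011 genes, 880 (6.76%) passed an adjusted p of 0.05 by limma with Benjamini-Hochberg adjustment over all 20607 genes tested, of which 5.74% passed, 2.61% higher and 3.13% lower in WSB. Among members WSB was higher for 381 (2.93%) and lower for 499 (3.84%). Of these, 352 (2.71% of members) differed at least 2-fold, with 182 higher and 170 lower in WSB. The median log2 fold change over the 13011 genes was -0.01, and the median size among the 880 was 0.83. No C3H value fell within the WSB range, nor the reverse, in any of the 880, and such separation was seen in 31.5% of all members. Before adjustment, 3600 genes had p under 0.05. The count was 1712 (13.2%) without C3H replicate 2, with 901 higher and 811 lower in WSB, and lay between 356 (without C3H replicate 1) and 541 (without WSB replicate 3) when each other mouse was left out. Of the 880, 792 passed in the same direction without C3H replicate 2, 828 did so with the GC trend removed (1145 passed in that fit, 8.8%), and 313 passed in all 6 fits that left out 1 mouse. In simulated data with 3 mice per strain this test found 68.2% of members changed 2-fold and 24.6% of those changed 1.5-fold, so smaller differences were often missed there. The simulation changed 200 genes in each set, whereas 880 members passed here. It also held no library-wide deviation such as that of C3H replicate 2, so these rates may differ in the real libraries.

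**Figure D1:**
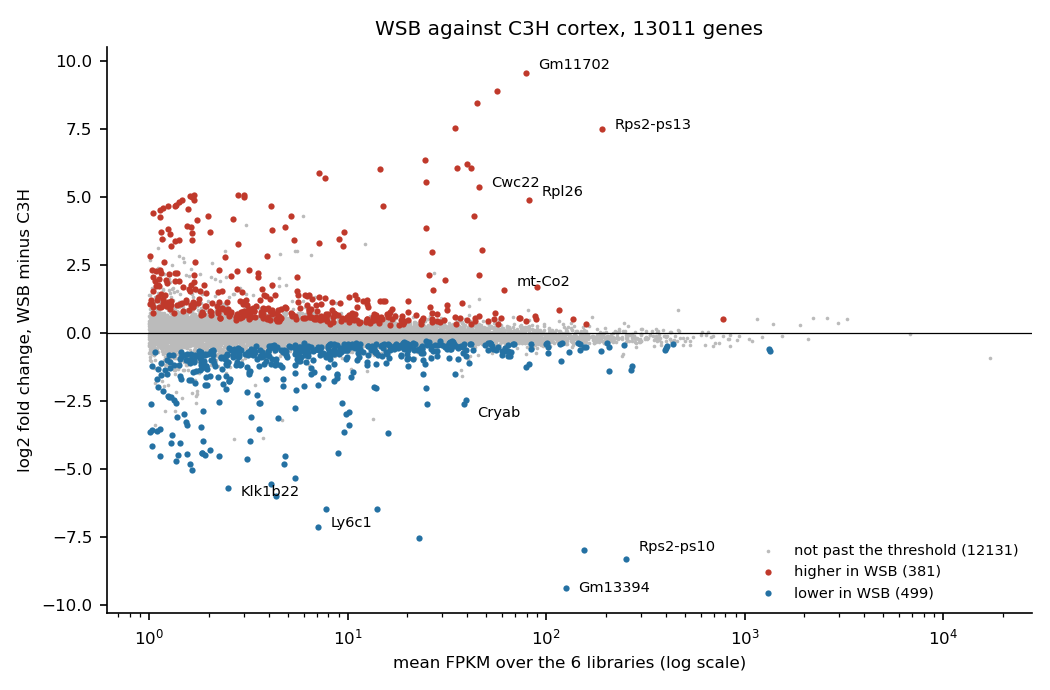
Each point is 1 of 13011 genes, placed by its mean FPKM over the 6 libraries (horizontal, log scale) and its log2 fold change, WSB minus C3H (vertical). The 381 genes higher and the 499 lower in WSB are colored, and the largest differences in either direction belong to the processed pseudogenes Gm11702 (9.57) and Gm13394 (-9.35).

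Several genes had reads in one strain and none or close to none in the other. Genes carry coordinates of the reference genome, and the part that sequence differences between strains played in these counts was not tested. Such genes met the level rule through the strain that had them, so their values are a description of the largest differences. Ly6c1 (ENSMUSG00000079018, chromosome 15, 75044018 to 75048830, GRCm38) encodes a surface antigen of the Ly6 family found on brain endothelium and monocytes. It had 18.1, 12.0 and 12.4 FPKM in the C3H mice and 10.5, 10.95 and 10.8 FPKM in the B6 mice, and 0 reads in every WSB mouse. Every C3H and B6 mouse therefore expressed it, and the WSB level was at least 138-fold lower than that of C3H when set at 3 reads per library (adjusted p = 3.19e-06, limma with Benjamini-Hochberg adjustment). Its relative Ly6c2, 97.6% identical over 822 bases, had at most 14 reads in any library. Klk1b22 (ENSMUSG00000060177, chromosome 7, 44112673 to 44116922), a kallikrein protease gene, had 4.84, 5.31 and 4.82 FPKM in C3H and 0 reads in each of the WSB and B6 mice. Among the 3 strains it was thus found in C3H, at least 24.7-fold above the floor set for WSB (adjusted p = 9.07e-06, same test).

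Baiap2l1, which encodes a membrane-bending protein that binds actin, had 6.96, 13.95 and 7.20 FPKM in C3H, and 0.223 to 0.342 FPKM in WSB (log2 fold change -4.52 ± 0.29 SE, adjusted p = 0.000226). B6 was as low as WSB, at 0.265 to 0.530 FPKM. Its span overlaps Bri3 and Gm15708 on the opposite strand, and the strand setting of the counting is not given in the sources used here, so reads of these genes cannot be told apart. Myoc, which encodes myocilin, an extracellular protein best known from the eye, was lower in WSB than in C3H (log2 fold change -3.64, adjusted p = 0.00107), with 0.0278 to 0.116 FPKM against 1.35 to 2.41 FPKM. Myoc was far higher still in B6, at 13.1 to 19.98 FPKM. Gm14295 had 2.07 to 3.42 FPKM in C3H and 0.0341 to 0.0982 FPKM in WSB, with B6 at 3.201 to 4.50 FPKM. Gm9955 (-3.44, adjusted p = 0.0402) passed in 1 of the 6 fits that left out 1 mouse, and its adjusted p was 0.0709 without C3H replicate 2. Pcna-ps2 had 8.16, 8.25 and 7.91 FPKM in C3H and at most 0.191 FPKM in WSB and 0.149 FPKM in B6 (-5.53), and its parent Pcna, 99.2% identical, was higher in WSB (0.60, adjusted p = 0.0197). Gm7879, a copy of Ppih, had 2.50 to 4.87 FPKM in C3H and 0.0746 to 0.283 FPKM in WSB (-3.97).

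In the opposite direction, Cwc22 (ENSMUSG00000027014, chromosome 2, 77881159 to 77946375) was 43.3-fold higher in WSB by the ratio of means. It encodes a splicing factor, its region is a known copy-number variant of mice, and 7 annotated copies are near-identical to it. The WSB mice had 101, 90.1 and 77.4 FPKM, the C3H mice 1.79, 2.46 and 1.96 FPKM and the B6 mice 1.99 to 2.46 FPKM (log2 fold change 5.37 ± 0.14 SE, adjusted p = 2.23e-06). The strains did not overlap, and B6 lay with C3H. Adad2, which encodes an adenosine deaminase domain protein of the testis, had 2.15 to 3.24 FPKM in WSB and 1 read in all C3H libraries together, a ratio of 297 with a 95% counting interval of 52.8 to 11766 (exact binomial, which covers counting error only). Tmprss6, a membrane serine protease known for iron control in the liver, had 2.27, 2.60 and 4.50 FPKM in WSB and 0.0800 to 0.261 FPKM in C3H (log2 fold change 3.70, adjusted p = 0.00152). AC154187.2 (4.68) and Gm13306 (3.73) completed the coding genes of largest difference that were higher in WSB, beside Rpl26, Tpm3-rs7 and AK157302, which have near-identical copies and are described with them.

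**Figure D2:**
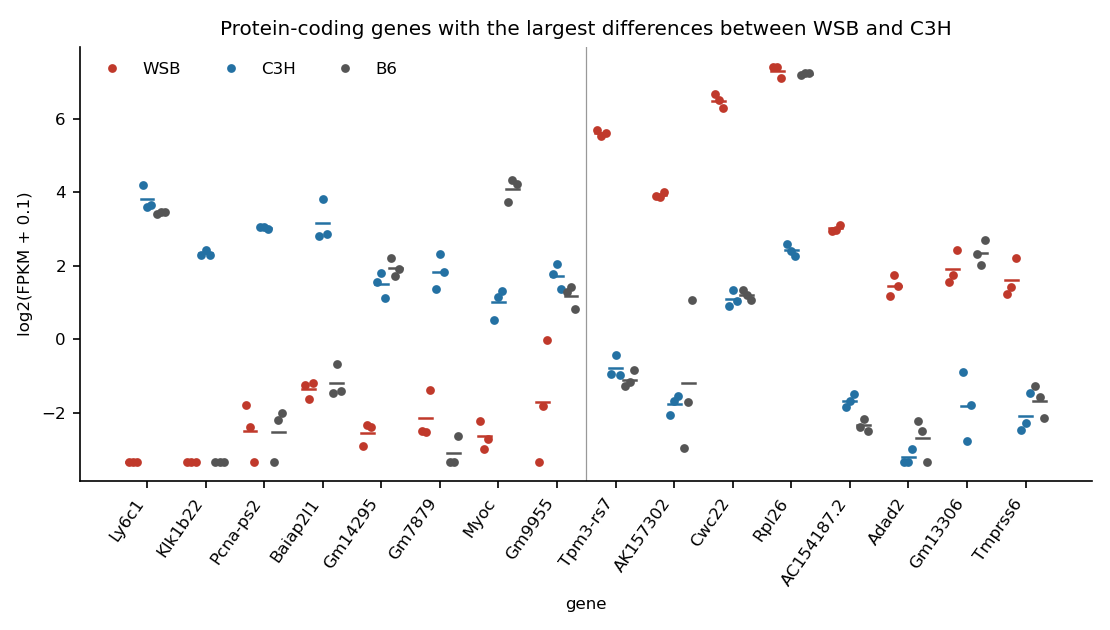
The 16 protein-coding genes with the largest differences, with each mouse as a point on the scale log2(FPKM + 0.1) (vertical) and horizontal bars for the strain means. The 8 genes on the left were lower in WSB and the 8 on the right higher, and B6 lay with C3H for Ly6c1 and Gm14295 and with WSB for Klk1b22, Pcna-ps2 and Baiap2l1.

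The placing of B6 showed which strain differed from the reference strain. On a scale where C3H is 0 and WSB is 1, the B6 mean lay from -0.25 to 0.25, with C3H, for 275 of the 880 genes (31.2%). It lay within 0.25 of 1, with WSB, for 228 (25.9%), between the 2 for 264 (30.0%), beyond C3H for 70 and beyond WSB for 43. Among the 352 genes with a difference of at least 2-fold, B6 lay with C3H for 147 (41.8%) and with WSB for 93 (26.4%). These shares describe genes chosen for their difference and carry no test.

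Many of the largest differences involved genes with near-identical copies elsewhere in the genome. Processed pseudogenes arise when a messenger RNA is copied back into DNA, and ribosomal protein genes have many. A copy counted here was at least 95% identical to the gene over 50% or more of the shorter transcript and at least 200 bases, in the GENCODE M21 annotation of the reference strain. By this rule 1256 of the 13011 members had a copy, as had 181 of the 880 genes that passed and 124 of the 352 with a difference of at least 2-fold. A copy silent in one strain was a member only where the other strain expressed it, so these counts compare nothing. Of 11743 protein-coding members, 656 passed (5.59%).

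The sequences show how little separates a gene from its copy. Rpl26, Rpl12 and Rps2 encode proteins of the cytosolic ribosome and Gapdh a glycolytic enzyme, and each stretch below is 120 bases of coding sequence beside the matching stretch of a copy that differed between the strains, with capitals at the bases that differ. They come from GENCODE M21 transcripts on GRCm38 and are written 5′ to 3′ in the direction of the gene. The Rpl26 stretch lies at chr11:68903183-68903302 and that of Gm15772 at chr5:3236603-3236722, both on the plus strand. The Gm11425 stretch is at chr11:83027745-83027864 and that of Gm13394 at chr2:28934205-28934324, both on the minus strand. The Rps2 stretch is at chr17:24720982-24721101 and that of Rps2-ps13 at chrX:52898976-52899095, both on the plus strand. Those of Rpl12 (bases 134 to 253 of the coding sequence) and Gapdh (bases 286 to 405) span an intron.
Rpl26: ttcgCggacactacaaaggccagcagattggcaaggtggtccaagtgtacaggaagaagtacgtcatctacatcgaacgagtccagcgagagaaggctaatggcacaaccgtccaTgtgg
Gm15772: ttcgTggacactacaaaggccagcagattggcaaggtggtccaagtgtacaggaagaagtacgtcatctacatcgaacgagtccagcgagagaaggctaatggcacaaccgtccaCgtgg
Rpl12: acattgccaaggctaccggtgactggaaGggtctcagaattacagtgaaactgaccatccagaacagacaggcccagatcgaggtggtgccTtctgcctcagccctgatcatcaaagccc
Gm11425: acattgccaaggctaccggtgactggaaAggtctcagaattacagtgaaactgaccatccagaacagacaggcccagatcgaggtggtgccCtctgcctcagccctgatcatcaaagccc
Gapdh: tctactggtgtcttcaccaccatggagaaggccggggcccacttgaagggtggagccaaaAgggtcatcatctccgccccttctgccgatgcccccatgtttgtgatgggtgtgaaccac
Gm13394: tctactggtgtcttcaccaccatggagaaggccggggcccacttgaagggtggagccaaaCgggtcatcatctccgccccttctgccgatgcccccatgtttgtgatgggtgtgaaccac
Rps2: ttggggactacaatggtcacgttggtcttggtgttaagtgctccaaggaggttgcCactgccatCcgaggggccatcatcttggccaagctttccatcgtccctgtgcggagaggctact
Rps2-ps13: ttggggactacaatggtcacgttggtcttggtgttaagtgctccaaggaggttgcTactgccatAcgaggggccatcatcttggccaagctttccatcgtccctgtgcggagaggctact
Over the coding bases compared, Rpl26 and Gm15772 differed at 3 of 269, Rpl12 and Gm11425 at 4 of 495, Gapdh and Gm13394 at 1 of 999, and Rps2 and Rps2-ps13 at 7 of 879. The Rpl26 coding sequence has 429 bases, and only those 269 were compared, without gaps. Over 438 aligned bases, Rpl26 and Gm15772 were 98.2% identical.

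Rpl26 (chromosome 11) and its pseudogene Gm15772 (chromosome 5) moved in opposite directions. Rpl26 had 170, 170 and 137 FPKM in WSB and 5.88, 5.22 and 4.71 FPKM in C3H, while B6 had 145 to 152 FPKM (log2 fold change 4.89 ± 0.12 SE, adjusted p = 1.70e-06). Gm15772 had 0.824, 1.32 and 1.37 FPKM in WSB and 307, 290 and 325 FPKM in C3H, with B6 at 0.750 to 0.893 FPKM (-7.94 ± 0.17 SE, adjusted p = 1.08e-06). More reads were thus assigned to Rpl26 than to Gm15772 in WSB and B6, and more to Gm15772 in C3H. Which of the loci the reads came from was not tested. Summed over Rpl26 and its 5 copies the size-normalised reads were 3700 to 4587 in WSB and 2511 to 2777 in C3H. The log2 ratio of the sums was 0.69, against 4.92 for the reads of Rpl26 alone.

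Rpl12 and its copies also differed in opposite directions. Rpl12 had 12.9, 14.2 and 9.46 FPKM in WSB and 70.9, 61.1 and 67.2 FPKM in C3H (-2.46 ± 0.15 SE, adjusted p = 0.000185), while its pseudogenes Gm11425 (8.91) and Gm9396 (7.54) were higher in WSB. The 2 pseudogenes had 94.8 to 122 and 62.0 to 82.2 FPKM in WSB and at most 0.364 FPKM in C3H. Summed with all 10 copies, the reads still stood at 2399 to 2777 in WSB and 4164 to 4822 in C3H, a log2 ratio of -0.79. Rps2-ps13 was at 338, 412 and 395 FPKM in WSB and 1.76 to 2.16 FPKM in C3H (7.496, adjusted p = 1.03e-07), Rps2-ps10 at 1.12 to 1.92 FPKM in WSB and 436 to 551 FPKM in C3H (-8.31, adjusted p = 1.08e-06), and Rps2 itself was 1.01 lower in WSB on the log2 scale. In B6 both pseudogenes were under 0.8 FPKM.

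Genes outside the ribosome behaved likewise. Tpm3, a tropomyosin of the actin cytoskeleton, was lower in WSB (-1.14, adjusted p = 0.000293), and its intronless copy Tpm3-rs7 was higher (6.38, adjusted p = 1.94e-06). The 2 together had 3619 to 3691 reads in WSB and 3735 to 4046 in C3H, so the family log2 ratio was -0.07. Srp9, a signal recognition particle subunit, was lower in WSB (-1.55, adjusted p = 0.000592) and Gm13736, identical to it over 253 bases, was higher (8.47, adjusted p = 0.000217), on 3 C3H reads in all (ratio 432, 95% counting interval 147 to 2098). The Gapdh pseudogene Gm13394 had 221 to 282 FPKM in C3H and 0.241 to 0.347 FPKM in WSB (-9.35, adjusted p = 1.03e-07), while Gapdh had a log2 fold change of -0.17 that did not pass (adjusted p = 0.351). AK157302, a copy of the iron-sulfur assembly gene Isca1, was higher in WSB (5.68). Gm11702 had 119 to 200 FPKM in WSB and 1 read in all C3H libraries (9.57, ratio 623, 95% counting interval 111 to 24661). It is 69 bases long, so no copy could meet the rule of at least 200 bases, and whether it has near-identical copies was not tested. In all, 37 coding genes that passed had a copy that passed in the opposite direction, and some of them, such as Tpm3 and Tpm3-rs7, are both sides of 1 pair. A family sum that adds such a copy is nearer to equal by construction, so the sums are a description. Without members that have a copy, 699 genes passed and 228 of them differed at least 2-fold. Genes with transcripts under 200 bases, such as Gm11702, are counted there as having no copy. How reads that fit several copies were assigned was not tested here.

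**Figure D3:**
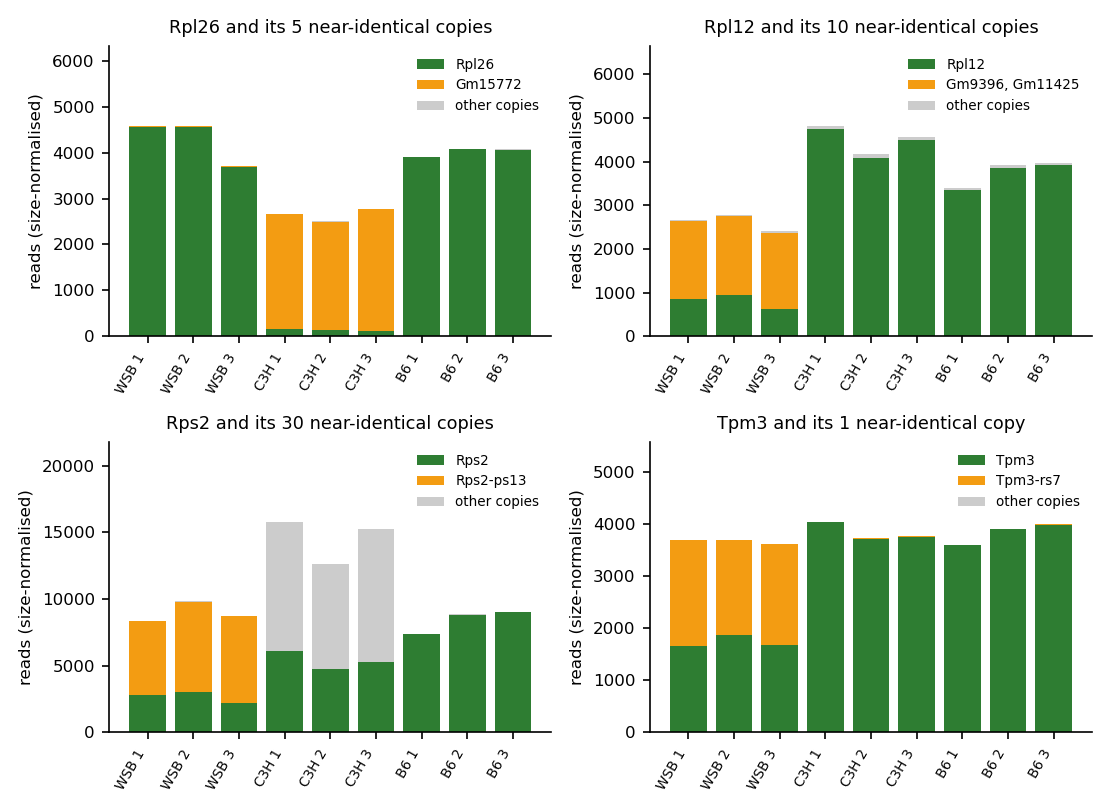
Size-normalised reads (vertical) in each of the 9 mice for 4 genes (green), the copies that passed in the opposite direction (orange) and all other copies (gray). The Tpm3 family had nearly level bars in WSB and C3H, whereas the Rps2 family reached 12649 to 15810 reads in C3H and 8367 to 9820 in WSB.

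Among the 78 ribosomal protein genes measured, 6 were lower and 2 higher in WSB (10.3%, against 6.76% of all members). The median log2 fold change was -0.22, and 72 of the 78 lay below 0. Rpl35a (4.01-fold lower by the ratio of means, adjusted p = 0.000222) and Rps18 (-1.08, adjusted p = 0.00027) joined Rpl12 among the lower ones. Both have copies that passed in the opposite direction, but the log2 ratio of the family sum was -1.89 for Rpl35a, against -2.004 for the gene, and -0.67 for Rps18. Rps2 and Rps15a (-0.68) were lower too, and Rpl21 (0.56) was the second gene that was higher. Without C3H replicate 2, 11 were lower and 2 higher.

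Genes of the circadian clock differed between the strains. In the clock's feedback loop the activators Clock and Bmal1, the latter encoded by Arntl, bind the DNA sequence CACGTG, called an E-box, and turn on Per, Cry, Nr1d1, Ciart and the output factors Dbp, Tef and Hlf, of which Per, Cry and Ciart then repress the activators. Of 18 clock genes measured, 5 were lower and 2 higher in WSB (38.9%, against 6.76% of all members), with a median log2 fold change of -0.24 against -0.01 over all members. Dbp, which binds D-box elements, had 15.8, 16.9 and 22.0 FPKM in WSB and 49.7, 43.2 and 61.5 FPKM in C3H (-1.49 ± 0.16 SE, adjusted p = 0.00272). Ciart, a repressor in the loop, had 3.38, 4.29 and 3.66 FPKM in WSB and 10.03, 7.97 and 9.94 FPKM in C3H (-1.28 ± 0.13 SE, adjusted p = 0.00213). In both genes every C3H mouse lay above every WSB mouse, and B6 lay between them at 27.7 to 32.3 FPKM for Dbp and 6.37 to 7.48 FPKM for Ciart.

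Tef (-0.49, adjusted p = 0.00619), Per2 (-0.48, adjusted p = 0.0437) and Per3 (-0.46, adjusted p = 0.035) were lower as well. On the activator side, Arntl was higher in WSB, with 4.92, 4.53 and 4.93 FPKM against 2.84, 3.64 and 3.03 FPKM (0.59 ± 0.12 SE, adjusted p = 0.0362). Rorb, a nuclear receptor of cortical layer 4 neurons, was also higher (0.66, adjusted p = 0.0381). Clock had a log2 fold change of 0.60, Nr1d1 -0.40, Per1 -0.30 and Cry1 -0.00, and none of these passed. Dbp, Ciart and Tef passed in all 6 fits that left out 1 mouse, Arntl, Rorb and Per3 in 1 and Per2 in none. With the GC trend removed, Per2 (adjusted p = 0.109) and Per3 (adjusted p = 0.0512) no longer passed, and without C3H replicate 2 Per2 did not (adjusted p = 0.0621). The list held 10 genes that passed without C3H replicate 2, 6 lower and 4 higher, and 3 in each fit that left out another mouse or took the replicate number as a block. The hour at which the mice were killed is not given in the sources used here, and a difference in that hour cannot be told apart from the strain. Dbp overlaps Sphk2 on the opposite strand, and Ciart overlaps C920021L13Rik.

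The promoters of clock genes were searched for the E-box, and those of 2 genes that were lower in WSB are shown because they held it. The Ciart promoter, at chr3:95882179-95882478 on the minus strand (RefSeq, GRCm38.p6), held it 3 times, and a Tef promoter at chr15:81811164-81811463 on the plus strand held it 1 time, in capitals in each. The window runs from 250 bases before to 50 bases after the start of the gene.
Ciart: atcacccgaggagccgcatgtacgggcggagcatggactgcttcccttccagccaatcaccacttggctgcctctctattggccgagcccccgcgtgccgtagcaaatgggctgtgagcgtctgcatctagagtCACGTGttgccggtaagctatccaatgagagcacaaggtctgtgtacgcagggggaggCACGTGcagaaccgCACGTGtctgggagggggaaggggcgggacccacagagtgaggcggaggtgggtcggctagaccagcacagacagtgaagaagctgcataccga
Tef: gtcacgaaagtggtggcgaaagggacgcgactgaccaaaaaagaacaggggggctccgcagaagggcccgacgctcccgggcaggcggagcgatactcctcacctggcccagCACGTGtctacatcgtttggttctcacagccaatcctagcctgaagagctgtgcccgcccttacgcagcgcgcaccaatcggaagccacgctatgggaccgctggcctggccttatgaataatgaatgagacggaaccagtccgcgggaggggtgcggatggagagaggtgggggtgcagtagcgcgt
The sequence CACGTG, which reads the same on both strands, occurred in 6 of 22 promoters of 16 clock genes in the table (27.3%), in 4 of 19 promoters of cholesterol genes (21.1%) and in 2349 of all 32851 promoters (7.15%). The listed promoters of Dbp, Per3 and Arntl held none in this window. These matches are a description of the letters, and no binding was measured.

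Every cholesterol synthesis gene that passed was higher in WSB. The pathway turns acetyl units into cholesterol through squalene, and its genes are switched together by the factor Srebf2, which Insig1 holds back when sterols are plentiful. Of 22 genes measured, 6 were higher and none lower in WSB (27.3%, against 6.76% of all members), 20 had a positive log2 fold change, and the median was 0.33. Insig1 had 25.9, 23.7 and 27.0 FPKM in WSB and 15.4, 13.7 and 15.1 FPKM in C3H (0.79 ± 0.08 SE, adjusted p = 0.00227), and it passed in all 6 fits that left out 1 mouse.

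The enzymes Sqle (0.51, adjusted p = 0.0101), Msmo1 (0.50, adjusted p = 0.0165), Fdft1 (0.41, adjusted p = 0.0476) and Cyp51 (0.36, adjusted p = 0.0406) were also higher. Sqle makes the epoxide of squalene, Fdft1 joins 2 farnesyl units into squalene, and Msmo1 and Cyp51 remove methyl groups from the sterol ring. Srebf2 itself had a log2 fold change of 0.19, which did not pass. With the GC trend removed 7 of the 22 were higher and none lower, and the median was 0.30, but Cyp51 no longer passed (adjusted p = 0.0514), nor did it without C3H replicate 2 (adjusted p = 0.0524). The number that passed was 6 without C3H replicate 2, 1 to 3 in the fits that left out another mouse, and 1 with the replicate number as a block. Fdft1 passed in 1, and Cyp51 in none, of the fits that left out 1 mouse. B6 lay near WSB for Insig1 (24.2 to 25.04 FPKM) and Msmo1 (14.8 to 16.2 FPKM), and near C3H for Fdft1 (23.6 to 25.9 FPKM).

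**Figure D4:**
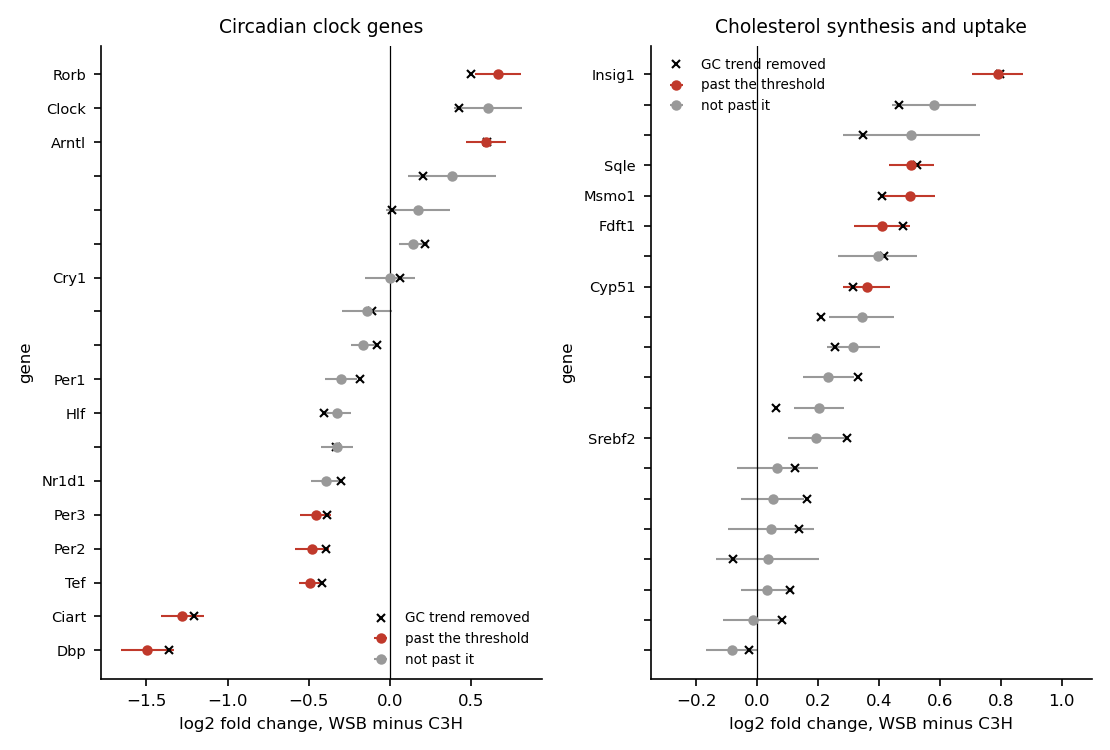
Log2 fold change, WSB minus C3H (horizontal), of the 18 clock genes and 20 of the 22 cholesterol genes, with bars of 1 SE, red for those past the threshold and crosses for the values after each library's GC trend was taken out. In the clock list Dbp (-1.49) and Ciart (-1.28) stand lowest, and in the cholesterol panel 18 of 20 points lie above 0. Genes named in the text carry labels.

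Every gene that passed on the lists of microglial markers and of Toll-like receptors and adaptors was lower in WSB. Of 16 interferon-stimulated genes only 1 passed (6.25%, against 6.76% of all members), also lower. None of the 16 passed with the GC trend removed or without C3H replicate 2. Outside these lists, the chemokine genes Ccl9 (3.43) and Ccl6 (1.76), named after their values were seen, were higher. Complement C1q tags synapses for removal by microglia, the brain's resident phagocytes, and Trem2 is their lipid receptor. Among 11 microglial markers, C1qc, Trem2 and C1qa were lower and none higher (27.3%, against 6.76% of all members). Without C3H replicate 2, 6 were lower. C1qc had 7.82, 8.04 and 7.26 FPKM in WSB and 18.4, 16.8 and 16.5 FPKM in C3H (-1.15 ± 0.08 SE, adjusted p = 0.000351), and B6 was highest at 24.9 to 26.9 FPKM. Trem2 (-0.93, adjusted p = 0.00948) and C1qa (-0.54, adjusted p = 0.0197) followed, whereas C1qb had 0.14 and P2ry12 0.11, which did not pass. The summed level of the 11 markers was 176 to 189 FPKM in WSB and 206 to 241 FPKM in C3H without overlap, and the part of this in each gene's result was not tested.

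Unc93b1, which carries nucleic acid sensing Toll-like receptors to their compartment, was lower in WSB, with 2.98, 2.93 and 2.85 FPKM against 5.71, 5.38 and 6.26 FPKM (-0.96 ± 0.10 SE, adjusted p = 0.0022). Every C3H value lay above every WSB value, and B6 lay with C3H at 5.54 to 6.05 FPKM. Irak2, a kinase of the same signaling, was lower as well (-0.78, adjusted p = 0.0233). No other of the 7 genes of that list passed, so the share was 28.6%, against 6.76% of all members. Cd74, the invariant chain of class II antigen presentation, had 2.60 to 2.81 FPKM in WSB and 5.48 to 8.19 FPKM in C3H (-1.17, adjusted p = 0.00861). H2-K1, a class I molecule, was higher in WSB (0.86, adjusted p = 0.0243), with 3.55 to 4.58 FPKM against 1.80 to 2.49 FPKM, and far higher in B6 at 9.95 to 11.1 FPKM. These genes are highly variable in sequence between strains, and how far this moved their reads was not tested. Psmb10 (-0.46) and the interferon-induced Bst2 (-0.58) were lower, but Bst2 passed in no fit that left out 1 mouse and not with the GC trend removed (adjusted p = 0.117). H2-K1 and Psmb10 were the only ones that passed of 12 genes of class I and peptide loading (16.7%, against 6.76% of all members). Tlr4 had 10 to 40 reads per library and was below the level rule.

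Markers of other cell types moved with some of these results. Oligodendrocytes wrap axons in myelin, and of their 14 markers Mog was lower in WSB (-0.92, adjusted p = 0.0407) while the other 13 did not pass, at a median log2 fold change of -0.47. Their summed level was 527 to 748 FPKM in WSB and 899 to 1195 FPKM in C3H, without overlap. The astrocyte marker Gfap was lower (-0.70, adjusted p = 0.0141) at nearly equal astrocyte sums of 772 to 790 FPKM and 744 to 784 FPKM. Red cell genes were lower in WSB in 3 of 5 cases (60%, against 6.76% of all members). These were Hba-a1 (-1.37, adjusted p = 0.00208), Hbb-bs (-1.34, adjusted p = 0.0109) and Alas2 (-1.05, adjusted p = 0.011). The red cell sums were 249 to 329 FPKM in WSB, 632 to 1010 FPKM in C3H and 217 to 254 FPKM in B6. Choroid plexus markers ranged from 92.1 to 657 FPKM among the C3H mice alone. None of 8 markers of excitatory neurons, of 9 of interneurons, of 11 of striatum, of 5 of thalamus or of 6 of meninges passed. Of the 11 layer markers 27.3% passed, the same share as among microglial markers and against 6.76% of all members. Rspo1 (1.26, adjusted p = 0.0171) and Rorb were higher and Cux2 (-0.40, adjusted p = 0.0458) lower, but Cux2 did not pass with the GC trend removed (adjusted p = 0.0809). Of 7 hippocampal markers Wfs1 was higher (0.63, adjusted p = 0.00292), or 14.3% of the list. Of 11 endothelial and mural markers 27.3% passed. Rgs5 was higher (0.72) and Ly6c1 and Slco1a4 (-0.61) lower, of which Slco1a4 did not pass without C3H replicate 2 (adjusted p = 0.0604).

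**Figure D5:**
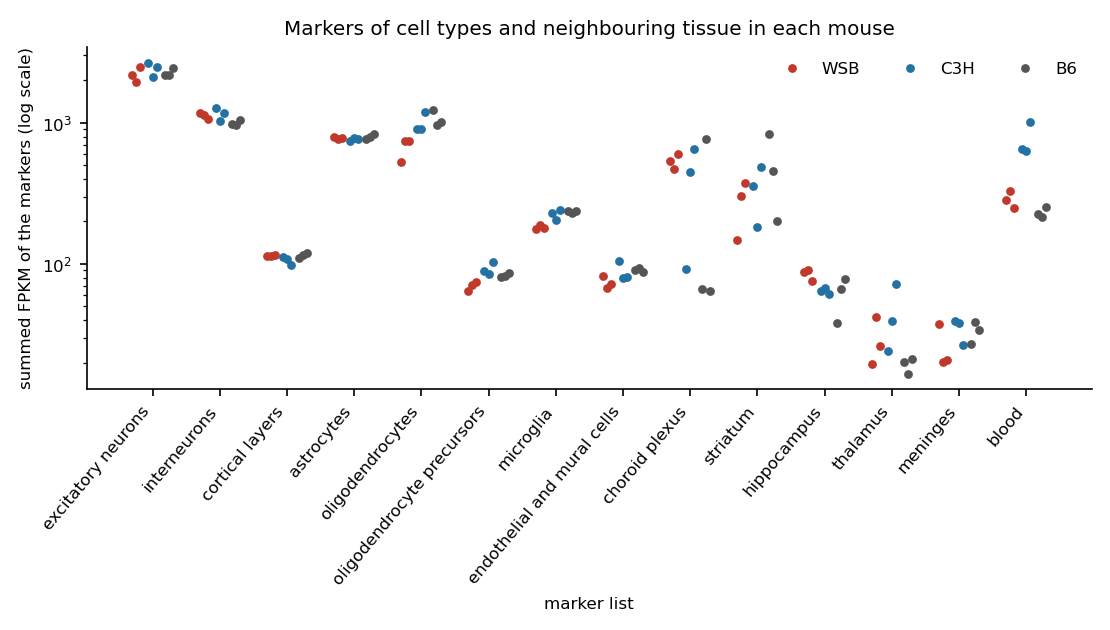
Summed FPKM (vertical, log scale) of the members of each marker list in every mouse. WSB and C3H did not overlap in the cortical layer, oligodendrocyte, oligodendrocyte precursor, microglia, hippocampus and blood lists, and overlapped in the lists of excitatory neurons, interneurons, astrocytes and striatum.

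Among the lists of excitatory and inhibitory transmission, 11.8% of genes of glutamate and GABA transport and synthesis passed, against 6.76% of all members. For ionotropic glutamate receptors the share was 6.25%. Of 16 ionotropic glutamate receptor genes, Gria3, an AMPA receptor subunit, was higher in WSB, with 17.1, 14.5 and 15.6 FPKM against 10.5, 12.8 and 10.02 FPKM (0.50, adjusted p = 0.048). Without C3H replicate 2, 3 of the 16 were higher and 2 lower. None of 7 metabotropic receptor genes and none of 12 GABA-A subunit genes passed, and without C3H replicate 2 the counts were 2 and 4, all higher in WSB. Of 17 genes of glutamate and GABA transport and synthesis, Slc1a6, a glutamate transporter of neurons, was higher (0.57, adjusted p = 0.0348). Glul, the astrocyte enzyme that turns glutamate into glutamine, was lower (-0.40, adjusted p = 0.0415), with 353 to 392.3 FPKM in WSB and 470 to 514 FPKM in C3H, each passing in 2 or fewer fits that left out 1 mouse. None of 19 genes of ion entry and exchange passed, while without C3H replicate 2 1 was higher and 2 lower.

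Syt1, the calcium sensor of synaptic vesicle release, had 162, 138 and 148 FPKM in WSB and 82.9, 86.5 and 76.8 FPKM in C3H (0.86 ± 0.09 SE, adjusted p = 0.00179), and passed in all 6 fits that left out 1 mouse. B6 was above both, at 170 to 187 FPKM. Of the 42 vesicle genes, 1 was higher and 1 lower in WSB, and 40 did not pass, while without C3H replicate 2 the counts were 5 higher and 3 lower. Cacng6, a calcium channel subunit, had 0.720 to 1.03 FPKM in WSB and 6.40 to 8.995 FPKM in C3H (-3.13 ± 0.19 SE, adjusted p = 0.000185), with B6 at the WSB level. With a WSB mean of 0.84 FPKM, Cacng6 met the level rule through C3H, so level and difference are linked. No other of 30 sodium and calcium channel genes passed, while 2 were higher and 1 lower without C3H replicate 2. Of 67 potassium channel genes, Kcnh7 was higher (0.77) and Kcnab2 lower (-0.50). None of 23 postsynaptic scaffold genes and none of 19 immediate early genes passed. Of 16 protocadherins, Pcdhb9, a cell adhesion gene of neurons, was lower (-1.62, adjusted p = 0.00182), with B6 at the C3H level.

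Of the genes of mitochondrial calcium uptake 16.7% passed, of oxidant defense 6.98% and of nuclear oxidative phosphorylation 1.19%, against 6.76% of all members. Most of each list had a log2 fold change below 0. Smdt1 and Mcub, a small subunit and an inhibitory relative of the pore of mitochondrial calcium uptake, were lower in WSB (-0.56, adjusted p = 0.0369, and -1.22, adjusted p = 0.0174). The remaining 10 genes of that list did not pass. Over all 12 the median was -0.19, and 11 lay below 0. Mcub had 1.05, 0.920 and 1.37 FPKM in WSB and 3.38, 2.27 and 2.54 FPKM in C3H. Sod3, the extracellular superoxide dismutase, had 0.643, 0.973 and 1.03 FPKM in WSB and 4.599, 3.44 and 3.87 FPKM in C3H (-2.07 ± 0.20 SE, adjusted p = 0.00163), with B6 at the C3H level. Its WSB mean was 0.88 FPKM, so it met the level rule through C3H, and level and difference are linked. Gstt1, a glutathione transferase, was lower (-1.01, adjusted p = 0.00364) and Nqo1, a quinone reductase, higher (0.71, adjusted p = 0.0127), while the other 40 of 43 genes of the list did not pass. Of the 43, 35 had a log2 fold change below 0, at a median of -0.13. Without C3H replicate 2, 1 of the 43 was higher and 4 were lower. Of 84 nuclear oxidative phosphorylation genes, Sdhb of complex II was lower (-0.40, adjusted p = 0.033). Of the 84, 75 had a log2 fold change below 0, at a median of -0.18, also with the GC trend removed. Shifts of whole lists were not tested. Without C3H replicate 2, 13 of the 84 were lower and none higher.

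Of 30 mitochondrially encoded genes, mt-Nd4l (2.97), mt-Co2 (1.60) and mt-Nd5 (0.52) were higher and mt-Th lower (-0.91). These made 13.3% of the list, against 6.76% of all members. mt-Co2, a subunit of cytochrome oxidase, had 111, 101 and 64.6 FPKM in WSB and 33.5, 29.6 and 26.3 FPKM in C3H (adjusted p = 0.00532). mt-Nd4l and mt-Co2 each have a nuclear copy 100% identical to them, and mt-Nd5 a copy 95.2% identical, so their reads can be split between loci. Gm28438, a nuclear copy of mt-Nd3, was higher as well (0.51, adjusted p = 0.0252). With the GC trend removed, mt-Nd5 (adjusted p = 0.0916) and Gm28438 (adjusted p = 0.172) did not pass. Mitochondrial DNA differs between strains, and the part this played in these counts was not tested.

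Among lists tied to the response to a blocked artery, Vegfa, the main growth factor of vessels, had 15.4, 14.9 and 18.3 FPKM in WSB and 10.3, 11.01 and 10.8 FPKM in C3H (0.59 ± 0.10 SE, adjusted p = 0.0154). Ephb4, a receptor of venous endothelium, was lower (-0.82, adjusted p = 0.0334), but it met the level rule through C3H, with a WSB mean of 0.92 FPKM. The other 16 of 18 vessel genes did not pass, so 11.1% passed, against 6.76% of all members. Arnt2, a partner of hypoxia factors, was higher (0.54, adjusted p = 0.0239), as the only 1 of 19 hypoxia genes. Casp9, the initiator caspase of the mitochondrial death pathway, had 6.06, 5.31 and 5.02 FPKM in WSB and 10.6, 8.96 and 10.4 FPKM in C3H (-0.86 ± 0.11 SE, adjusted p = 0.00558), and B6 was below both, at 4.16 to 4.66 FPKM. The other 18 of 19 genes of cell death did not pass. Of 26 lysosomal genes, Scarb2 (0.50) and Tpp1 (0.49) were higher and Ctsk (-0.85) and Cst3 (-0.59) lower (15.4%, against 6.76% of all members). Of 60 listed chaperones, Dnajb11 was lower (-0.39, adjusted p = 0.032), or 1.67%, against 6.76% of all members. The small heat shock protein gene Cryab, described below, was not on that list. Without C3H replicate 2, 1 of the 60 was lower and 4 were higher. Without that mouse, 4 lysosomal genes were lower and 2 higher.

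Many zinc finger genes named Zfp encode repressors of transposable elements that expanded in clusters, and their copies differ between strains. Of 268 measured, 14 were higher and 2 lower in WSB (5.97%, against 6.76% of all members), and the median log2 fold change was 0.17. Zfp963 had 2.64, 2.29 and 1.95 FPKM in WSB and 0.444, 0.337 and 0.471 FPKM in C3H (2.21 ± 0.20 SE, adjusted p = 0.00111), with B6 between at 0.905 to 1.12 FPKM. Zfp109 (1.21) and Zfp867 (1.19) were higher and Zfp605 (-1.48) lower. Zfp963 and Zfp109 met the level rule through WSB, with C3H means of 0.417 and 0.618 FPKM. The list had a median GC content of 45.8%, and with the GC trend removed 20 were higher and 4 lower at a median of 0.14. Without C3H replicate 2, 39 were higher and 4 lower.

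Selenow, Cst3, Kif5a and Reep5 were among the most abundant genes that passed, as was Rps2-ps13, described with its family. Selenow, a small selenoprotein, and Cst3, the protease inhibitor cystatin C, were lower in WSB (-0.64, adjusted p = 0.037, and -0.59, adjusted p = 0.0339). Selenow had 1001, 1138 and 988 FPKM in WSB and 1851, 1416 and 1631 FPKM in C3H. Kif5a, a kinesin of axonal transport, was lower (-0.46, adjusted p = 0.0262) with 323 to 372 FPKM against 465 to 469 FPKM. Reep5, an endoplasmic reticulum shaping gene, was higher (0.34, adjusted p = 0.0458). Each of these 4 passed in 2 or fewer of the fits that left out 1 mouse.

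Cryab, a small heat shock protein of glia, was lower in WSB (-2.60 ± 0.19 SE, adjusted p = 0.000444), with 8.17, 14.3 and 10.7 FPKM against 63.5, 59.9 and 75.2 FPKM, while B6 lay with C3H at 65.5 to 73.8 FPKM. Alad and Glo1 are known to vary in copy number between inbred strains. Alad, an enzyme of heme synthesis, had 11.9, 12.1 and 13.0 FPKM in WSB and 38.9, 30.3 and 36.8 FPKM in C3H (-1.50 ± 0.11 SE, adjusted p = 0.000324). Glo1, which clears methylglyoxal, had 47.0, 47.4 and 47.1 FPKM in WSB and 110, 107 and 119 FPKM in C3H (-1.25 ± 0.07 SE, adjusted p = 0.00011), and Btbd9, the next gene, was lower too (-0.63, adjusted p = 0.00271). For both Alad and Glo1, B6 lay at the WSB level. Gabra2 and Ide had log2 fold changes of 0.32 and -0.06 and did not pass. Pttg1 was below the level rule, at 4 to 10 reads in each WSB and C3H library and 408 to 470 reads in each B6 library.

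The differences were spread over the genome. The share that passed ran from 4.46% on chromosome 10 to 8.62% on chromosome 7 among the autosomes, with 5.26% on chromosome X. Of 102 pairs of neighbouring members that both passed, 63 pairs had the same direction. There were 56 runs of neighbours that passed in the same direction, with 119 genes in all, and 5 runs held at least 3. On chromosome 17 from 6256860 to 6639790, Tmem181a (-0.64), Dynlt1b (-1.93), Tmem181b-ps (-3.65) and Tmem181c-ps (-5.97) were all lower in WSB, although Tmem181a did not pass without C3H replicate 2 (adjusted p = 0.0671). Tmem181b-ps had 26.4, 34.3 and 28.5 FPKM in C3H and 1.88 to 2.78 FPKM in WSB. On chromosome 19 from 40550257 to 40612233, Aldh18a1 (-0.67), Gm15801 (-4.51), Gm27042 (-4.42) and Tctn3 (-1.68) were lower, and on chromosome 2 from 71453276 to 71537891 Metap1d (1.22), Dlx1as (0.99) and Dlx1 (0.48), the last a transcription factor of interneurons, were higher. The chemokine genes Ccl9 (3.43) and Ccl6 (1.76) were higher side by side on chromosome 11.

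A list of 14 genes on chromosome 8, drawn from those the study singled out there, was read in the same comparison, and as most were chosen on these libraries against B6 the list is not independent of them. Of the 14, 9 met the level rule and none passed, with log2 fold changes from -0.63 (Dctd, adjusted p = 0.0644) to 0.64 (Sorbs2, adjusted p = 0.0777). Cnot7 had 12.7 to 14.5 FPKM in WSB and 9.91 to 12.5 FPKM in C3H (0.26, adjusted p = 0.202), and Mtmr7 had 10.6 to 11.2 FPKM and 10.3 to 10.7 FPKM (0.05, adjusted p = 0.738). Without C3H replicate 2, 2 of the 9 were higher and 1 lower. Micu3 (0.31), Vps37a (0.43), Dlc1 (0.31), Slc7a2 (-0.49) and Trmt9b (0.43) did not pass either. Of the 5 below the level rule, Tlr3 was lower in WSB (-1.40, adjusted p = 0.0339, limma with Benjamini-Hochberg adjustment), with 26 to 58 reads against 117 to 162. 1700029J07Rik (-0.54) and Sgcz (0.34) did not pass, and Gm40493 and Gm5345 had at most 2 reads in any WSB or C3H library.

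The level rule let 641 members pass through 1 strain, with a mean under 1 FPKM in the other. Of these 641, 200 passed the test, and of the 12370 whose mean reached 1 FPKM in both strains 680 passed (5.50%). Just inside the rule stood Mir135a-2, Nfe2l3 and Tcf7l1, and just outside it B3gnt9, Gm27686 and Piga, all with a mean that rounds to 1 FPKM.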

How the data were processed

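Cortex RNA of 3 male mice per strain was sequenced with paired-end reads. The authors trimmed adapters with Cutadapt and counted reads on genes with HTSeq, the labels name STAR, and their tests used DESeq2. The authors deposited FPKM values per gene and mouse, with the gene length (other unit) in the same table; versions and the genome build are not given in the sources used here, and 53585 of 54532 identifiers had the coordinates of GENCODE M21 (GRCm38). FPKM times gene length was a whole multiple of 1 step per library (100% of values within 0.02 reads), which gave reads per gene. Counts of same-strain mice gave chi-squares of 7.29 to 22.0 a gene, so no libraries were alike within sampling noise. Mice are the labels' samples, and p-values measure the spread between them.

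WSB was tested against C3H by limma 3.58.1 in R 4.3.3 (two-sided, eBayes with a trend) on log2(FPKM + 0.1). Genes averaging under 0.1 FPKM were left out, p-values were adjusted by Benjamini-Hochberg, and 0.05 was the threshold. The pseudocount makes fold changes of low genes too small. In 10 simulated sets with 200 changed genes, 4.23% of calls among members, and 16.0% over all genes tested, were false. Copies were searched with blastn 2.17.0 and sequences come from GENCODE M21 and RefSeq (GRCm38.p6). Intervals and the floor of 3 reads cover counting error only.

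Members and gene lists were chosen with earlier results of these data known. Named by rule were the 8 coding genes of largest change and the 3 non-coding ones in each direction, the 4 of highest level, up to 4 of each function list, 14 chromosome 8 genes, genes known to vary between strains, and those at the level threshold. Tef, Per2, Per3, Clock, Nr1d1, Per1, Cry1, Fdft1, Cyp51, Srebf2, Cryab, Tlr4, Rps2, Rps15a, Rpl21, the marker genes, the copies and the neighbouring genes were named after their values were seen. Alternatives were pseudocounts of 1 and 0.01, no filter or 1 FPKM, median-ratio and total-read rescaling, all 3 strains in one fit, no trend, weights from voom, replicate numbers as a block, GC and length trends removed, other member rules, protein-coding genes only, and each mouse left out. Counting only members without a copy was added after seeing the data. Some genes of these lists are counted but not reported singly here.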

Additional observations from a re-analysis of the deposited data

How the results depend on the processing

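The 880 genes, 381 higher and 499 lower in WSB and 352 at least 2-fold, stayed within 1.5 times under most alternatives. Without a trend in eBayes 480 passed (222 higher, 258 lower), and voom weights gave 597 higher. With the replicate number as a block 423 passed (195 higher, 228 lower). Deviations of same-numbered mice correlated at -0.0272, -0.153 and 0.0349, and those of differently numbered mice at -0.173 to 0.187. Whether same-numbered mice shared any handling was not tested, nor was the cause of the lower count. At least 2-fold were 183 genes among protein-coding genes fitted alone, 166 among members with 1 FPKM in each strain, and 228 among members without a copy, where fewer genes are counted. Leaving out 1 mouse moved the count to between 356 and 1712, with 173 to 901 higher and 183 to 811 lower, the highest of each without C3H replicate 2 and the lowest without C3H replicate 1; each of the other 4 mice left out gave 394 to 541. Of 90 named genes, none changed direction in any alternative. In the simulation, which changed 200 genes and held no library-wide deviation, differences under 2-fold were often missed with 3 mice a strain. Reads split among copies limit single genes of a family.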
